A study of Gallus gallus with 6 samples.

Results

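Amino acid transporters are membrane proteins that carry amino acids and small peptides across the plasma membrane or the membranes of organelles. The gene family members described here were taken by symbol from the deposited chicken count table, which leaves out family genes listed there without one. The members are the genes with a symbol of the SLC1, SLC3, SLC6, SLC7, SLC15, SLC36, SLC38 and SLC43 families, plus SLC16A10. There were 50 such genes among 24356 in the table. Of these, 47 had at least 1 count, and 30 had at least 10 counts in 3 or more libraries. The same 30 passed the filter on low counts and were tested.

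The data are RNA sequencing libraries of chicken ocular lens explants kept in culture after an operation that models cataract surgery. From day 1 to day 3 after injury the explants received, each day, DMSO as vehicle or GSK-J4, a compound that blocks KDM6A and KDM6B, enzymes that remove methyl groups from histones, with 3 libraries per group. Both groups shared the injury and a medium with 10% fetal bovine serum, which itself supplies amino acids and growth factors. The labels do not say how many animals of which sex stand behind a library, or whether libraries came from separate animals.

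The lens has no blood vessels, so its cells take amino acids from the surrounding fluid. Several carriers serve glutathione, the main antioxidant of the lens, which is built from cysteine, glutamate and glycine. Others move leucine and its relatives, arginine and lysine, or glutamine. When amino acids run short or translation initiation is slowed, vertebrate cells translate the transcription factor ATF4, which in mammals acts on many of these transporter genes. A pool of carriers in lysosomes returns amino acids to the cytosol and takes part in signalling to the growth kinase complex mTORC1.

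Library totals ran from 14862268 counts (GSK-J4 replicate 3) to 22541756 (GSK-J4 replicate 2). Lens markers were high: in CPM (counts scaled to library size after TMM normalization), CRYAB lay at 16742 or above and MIP at 969 or above in every library. Markers of other cells were low but not absent. The 6 striated muscle markers summed to 22.8 to 52.3 CPM with DMSO and 18.4 to 30.5 with GSK-J4, with MYOG at 0 and most of the sum from DES. Among them TNNI2, a troponin of fast muscle, had 11.9, 5.78 and 13.8 CPM in the DMSO libraries and 2.19, 1.26 and 1.72 in the GSK-J4 libraries. TNNI2 fell (log2 fold change -2.62, edgeR adjusted p = 0.0018). DES, the other tested muscle marker, overlapped between groups and was not called (log2 fold change -0.27, edgeR adjusted p = 0.67). The 5 measured blood and vessel markers summed to 9.99 to 17.9 CPM with DMSO and 12.4 to 13.5 with GSK-J4, nearly all from KDR, with HBBA, HBE1 and CDH5 at 0. The 5 measured pigment cell markers summed to 2.16 to 2.98 and 2.33 to 2.87 CPM, with TYR at 0, and the 4 measured immune markers to 2.83 to 8.31 and 3.08 to 5.14 CPM. The part of such cells in the transporter values was not tested. Genes of chromosome W, which only female birds carry, summed to 390.4, 938 and 909.8 CPM in the DMSO libraries. In the GSK-J4 libraries they summed to 349.5, 763 and 15.6 CPM, so that the last of these stood far below the rest. The libraries held bulk RNA, in which fewer cells of a type and less RNA per cell cannot be told apart.

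Transporter RNA as a whole was dominated by 1 gene. SLC7A5 encodes LAT1, the light chain of the exchanger that brings leucine and other large neutral amino acids into cells. Its FPKM, the authors' value per length and depth, was 590, 591 and 476 in DMSO replicates 1, 2 and 3 and 729.7, 763 and 831 in GSK-J4 replicates 1, 2 and 3. It lies on chromosome 11 from 17954812 to 17987235, on the minus strand, and ranked number 95 of all 24356 genes by mean FPKM. SLC7A5 made up 56.6% ± 4.06 of the summed FPKM of the 50 genes with DMSO and 61.4% ± 0.144 with GSK-J4 (SD, n = 3 each). The next 5 of the 50 genes by mean FPKM were SLC6A6, SLC38A2, SLC1A4, SLC7A3 and SLC38A10, each with group means between 36.8 and 78.6 FPKM. The summed FPKM of all 50 was 991, 1015 and 917 in DMSO replicates 1, 2 and 3 and 1186, 1245 and 1351 in GSK-J4 replicates 1, 2 and 3.

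**Figure D1:**
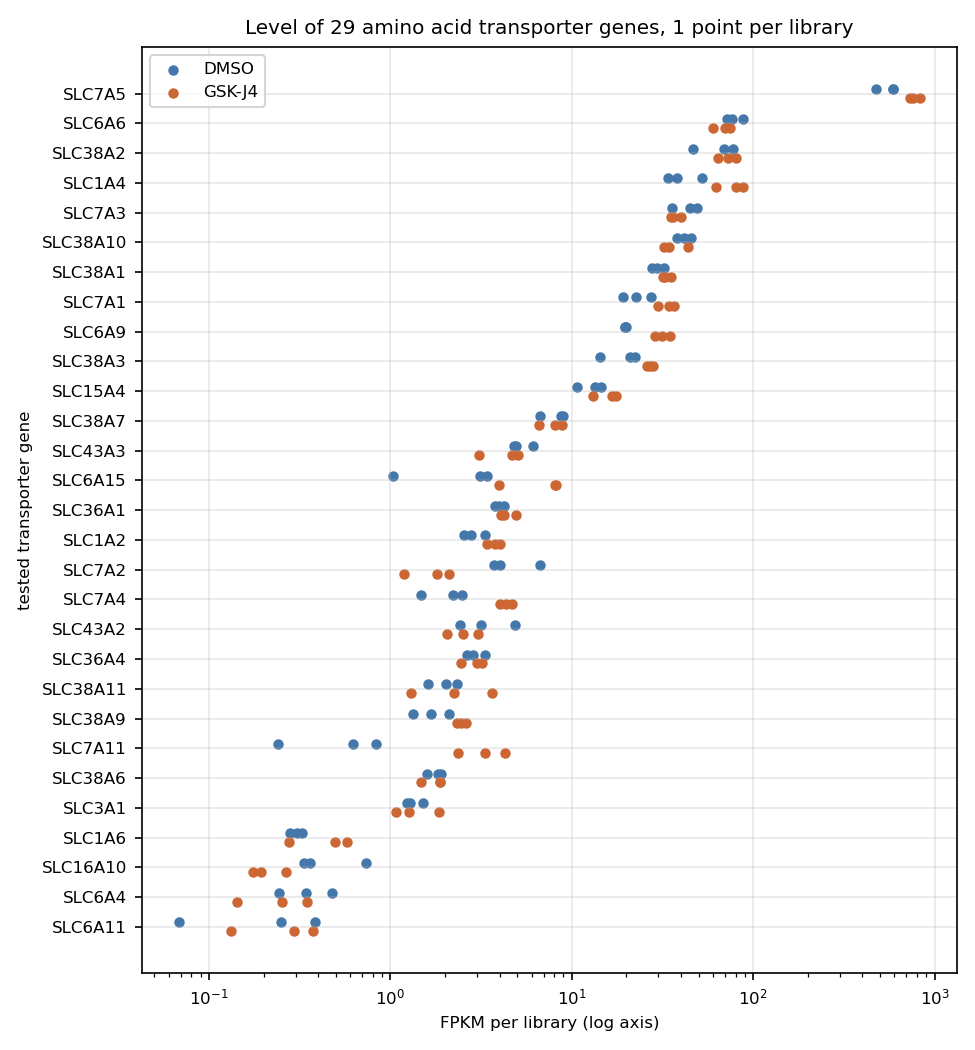
FPKM (log axis) of 29 of the 30 tested transporter genes, 1 point per library, blue for DMSO and orange for GSK-J4, ordered by mean level. SLC7A5 lies near 476 to 831 FPKM, well above the next gene, SLC6A6, whose group means were 78.6 and 68.2 FPKM.

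The comparison of GSK-J4 with DMSO asks which transporter genes respond to the inhibitor. Of the 30 tested members, 4 rose and 1 fell in edgeR's quasi-likelihood test at an adjusted p below 0.05, and 25 were not called. The genes that rose were SLC7A11, SLC7A4, SLC1A4 and SLC6A9, and the gene that fell was SLC7A2. Called members were 16.7% of those tested, beside 5.04% of all 12583 tested genes. For the direction up the shares were 13.3% and 1.05%, and for the direction down 3.33% and 3.99%. CPM ranges of the groups did not overlap for 12 of 30 members (40.0%), beside 24.3% of all tested genes. GSK-J4 lay above for 10 members and below for 2, beside 10.8% and 13.5% of all tested genes. The median log2 fold change was 0.16 over the members and 0.01 over all tested genes. Without GSK-J4 replicate 2 the count of called members was 2 (SLC7A11 and SLC7A2), and without GSK-J4 replicate 3 it was 3. Calls over all genes fell as well, from 634 to 249 of 12838 tested and to 278 of 12883 tested.

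**Figure D2:**
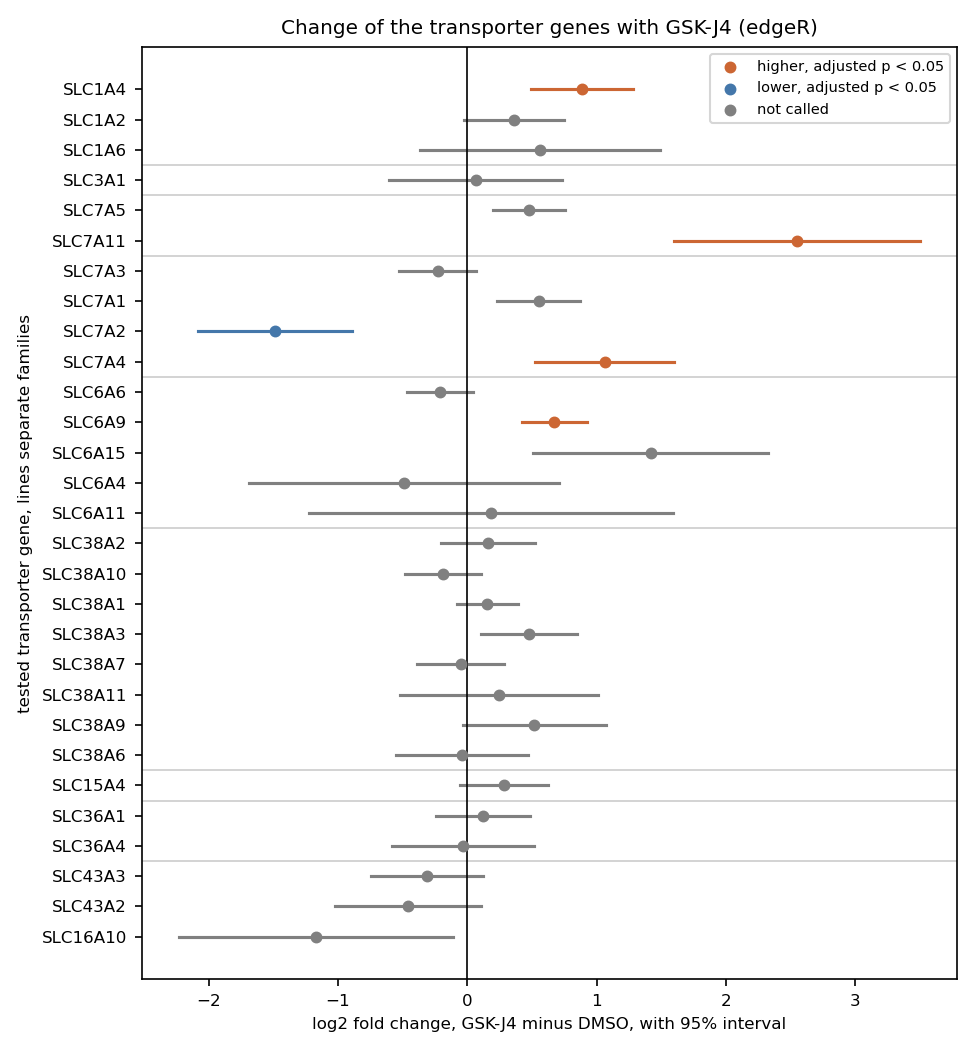
Log2 fold change (GSK-J4 minus DMSO) of 29 of the 30 tested transporter genes with 95% intervals from edgeR, n = 3 libraries per group, arranged by family. The 4 genes that rose lie between 0.67 and 2.55, SLC7A2 lies at -1.49, and the SLC38 genes lie between -0.19 and 0.52.

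The light chains of heteromeric exchangers were the first group. SLC7A11, which exchanges cystine for glutamate and so supplies cysteine for glutathione, had 6, 15 and 19 counts in DMSO replicates 1, 2 and 3 and 52, 99 and 84 in GSK-J4 replicates 1, 2 and 3. In CPM these were 0.341, 0.876 and 1.14 against 3.25, 4.62 and 6.02, so every GSK-J4 library was above every DMSO library. It rose 5.86-fold, with a log2 fold change of 2.55 (SE 0.43, 95% interval 1.60 to 3.50) and an edgeR adjusted p of 0.0065. In spite of the rise it remained a low gene, at 0.564 ± 0.300 FPKM with DMSO and 3.32 ± 0.968 with GSK-J4 (SD, n = 3 each). The call held in all 13 alternative fits. SLC7A11 reached 10 counts in 5 of 6 libraries, but in only 2 of the 3 DMSO libraries. It therefore passed the filter on low counts with the help of the GSK-J4 libraries, where it was high. Its p-value is to be read with that limit. On the deposited coordinates, for which no build is named, SLC7A11 (ENSGALG00000009758) lies on chromosome 4 from 28905344 to 28960060, on the minus strand.

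SLC7A5 differed less in ratio than SLC7A11, at a far higher level. Its CPM was 2179, 2183 and 1701 in DMSO replicates 1, 2 and 3 and 2624, 2777 and 3037 in GSK-J4 replicates 1, 2 and 3, again with no overlap. The log2 fold change was 0.48 (SE 0.13, 95% interval 0.20 to 0.75), and it was not called (edgeR adjusted p = 0.058). It was called in 6 of 13 alternatives, among them DESeq2 size factors (0.040) and DESeq2's own test (0.0049), and reached 0.22 without GSK-J4 replicate 3. Its group means were 552 ± 66.0 FPKM with DMSO and 774 ± 51.6 with GSK-J4 (SD, n = 3 each). SLC3A1, the heavy chain that in mammals pairs with SLC7A9 to take up cystine in the kidney, had a log2 fold change of 0.06 at 1.34 ± 0.155 and 1.40 ± 0.409 FPKM (SD, n = 3 each), and was not called (edgeR adjusted p = 0.94). SLC7A9 had 18 counts over the DMSO libraries and 7 over the GSK-J4 libraries, and SLC7A10, a carrier of small neutral amino acids, had 3 and 1, too few to test. SLC3A2, the heavy chain partner of SLC7A5 and SLC7A11, has no gene under that symbol in the count table and was not analysed here.

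The cationic carriers, which move arginine, lysine and ornithine, went in different directions. SLC7A2, an arginine carrier that in mammals is induced in inflamed tissue, had 13.3, 12.2 and 21.3 CPM in DMSO replicates 1, 2 and 3 and 5.76, 6.86 and 3.87 in GSK-J4 replicates 1, 2 and 3. DMSO replicate 3 was the highest library, and all GSK-J4 libraries lay below all DMSO libraries. SLC7A2 was 2.81-fold lower (log2 fold change -1.49, SE 0.27, edgeR adjusted p = 0.0096). Its call held in all 13 alternative fits, most narrowly without GSK-J4 replicate 3 (adjusted p = 0.049). SLC7A2 (ENSGALG00000013627) is placed on chromosome 4 from 63027358 to 63067114, on the minus strand.

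SLC7A4, a relative of the cationic carriers whose substrate is not settled, had 5.18, 4.61 and 2.95 CPM with DMSO and 8.76, 9.62 and 8.25 with GSK-J4, in the order of replicates 1, 2 and 3. It rose 2.09-fold (log2 fold change 1.06, SE 0.24, edgeR adjusted p = 0.031), with no overlap between groups. SLC7A4 (ENSGALG00000002204) is placed on chromosome 15 from 10363855 to 10366678, on the minus strand. That call was lost without DMSO replicate 3 (0.083) or any 1 of GSK-J4 replicates 1 (0.071), 2 (0.14) and 3 (0.086). SLC7A1, the widespread arginine and lysine carrier, had 39.8, 33.6 and 46.5 CPM with DMSO and 51.5, 60.1 and 64.3 with GSK-J4. Its log2 fold change was 0.55 (SE 0.15), and with an edgeR adjusted p of 0.057 it was not called, although the groups did not overlap. It was called in DESeq2's test (0.017) and without DMSO replicate 3 (0.041). SLC7A3, a cationic carrier known mainly from the mammalian brain, was the most abundant of the 5 with DMSO and had 201, 183 and 142 CPM with DMSO against 140.4, 146 and 162 with GSK-J4. The groups overlapped, and the gene was not called (log2 fold change -0.23, edgeR adjusted p = 0.40). Its span overlaps SNX12 on the same strand, so reads there may be split between the genes.

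Shares within the cationic group differed in the group means at a similar total, but shares were not tested. SLC7A3 and SLC7A1, which held the largest shares, were not called. The summed FPKM of the cationic group was 73.5 ± 4.58 with DMSO and 77.1 ± 5.39 with GSK-J4 (SD, n = 3 each). SLC7A3 held 62.6%, 64.0% and 49.9% of that sum in DMSO replicates 1, 2 and 3 and 49.4%, 46.6% and 48.9% in GSK-J4 replicates 1, 2 and 3, so DMSO replicate 3 stood near the GSK-J4 libraries. SLC7A1 held 27.2% to 37.9% with DMSO and 41.9% to 44.8% with GSK-J4. SLC7A2 held 5.12% to 9.33% with DMSO and 1.45% to 2.72% with GSK-J4. SLC7A14, a lysosomal relative, had 16, 6 and 19 counts in DMSO replicates 1, 2 and 3 and 1, 8 and 1 in GSK-J4 replicates 1, 2 and 3, overlapped between groups and was not tested.

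**Figure D3:**
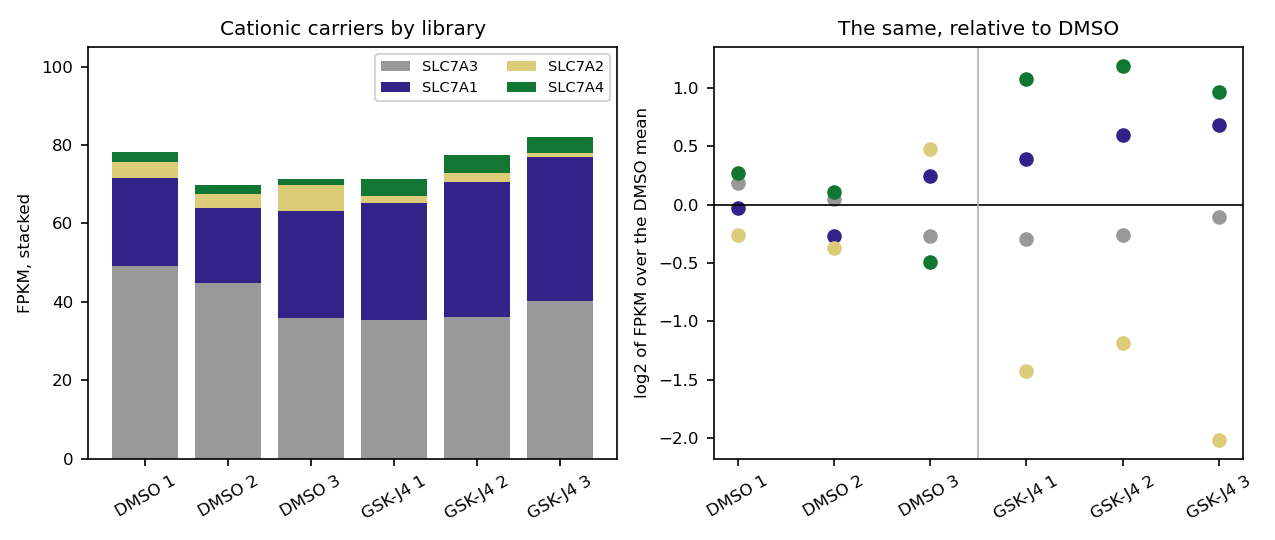
Left, stacked FPKM of the 4 tested cationic carriers in each library. Right, log2 of each library's FPKM over the gene's DMSO mean, 1 point per gene and library. SLC7A2 (sand) lies below all DMSO libraries in each GSK-J4 library, SLC7A4 (green) and SLC7A1 (dark blue) lie above, and SLC7A3 (grey) overlaps.

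Among the sodium-driven SLC1 carriers taken by symbol, SLC1A4 was the abundant one, with 90.8% to 93.0% of their summed FPKM in DMSO libraries. It encodes ASCT1, an exchanger of alanine, serine and cysteine. Its CPM was 87.4, 135 and 94.7 in DMSO replicates 1, 2 and 3 and 156, 205 and 225 in GSK-J4 replicates 1, 2 and 3, with no overlap. It rose 1.85-fold (log2 fold change 0.89, SE 0.18, 95% interval 0.49 to 1.29, edgeR adjusted p = 0.018). Its adjusted p rose to 0.087 with DMSO replicate 3 left out, and to 0.075 and 0.072 with GSK-J4 replicates 2 and 3 left out, which ended the call. SLC1A4 (ENSGALG00000008811) is placed on chromosome 3 from 10532551 to 10556800, on the plus strand.

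The glutamate carriers of the SLC1 family were low. SLC1A2, the main glutamate carrier of mammalian astrocytes, had 10.2, 12.3 and 9.03 CPM with DMSO and 13.6, 12.5 and 14.6 with GSK-J4, without overlap, and was not called (log2 fold change 0.36, edgeR adjusted p = 0.30). SLC1A6, a glutamate carrier known from cerebellar neurons in mammals, was at or under 1.87 CPM in every library and was not called (0.56, edgeR adjusted p = 0.52). SLC1A1, which carries glutamate and cysteine, had 5, 5 and 6 counts in DMSO replicates 1, 2 and 3 and 1, 12 and 6 in GSK-J4 replicates 1, 2 and 3. SLC1A7, a glutamate carrier of the mammalian retina, had 8 counts in all.

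SLC1A3, the glutamate carrier of glia and many other cells, did not pass the filter. It had 11, 8 and 32 counts in DMSO replicates 1, 2 and 3 and 0, 1 and 1 in GSK-J4 replicates 1, 2 and 3, so the groups did not overlap, with DMSO replicate 3 the highest. The ratio of DMSO to GSK-J4 per effective library size was 25.5, with a 95% interval of 6.71 to 216 that covers counting error only. The reported fit did not test it. It could pass a count filter only through the DMSO libraries, so no p-value is given for it. Its calls in alternatives that let it in are not read as a result. Summed CPM of 5 glial markers, of which SLC1A2 is itself a member here, was 50.1 to 97.4 with DMSO and 75.4 to 85.1 with GSK-J4, and GFAP had under 0.1 CPM in every library. SLC1A3, SLC1A1 and SLC38A9 lie on chromosome Z, which differs in dose between the sexes. The 560 tested chromosome Z genes had a median log2 fold change of 0.16, against 0.01 over all tested genes, and the part of sex in these values was not tested.

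The SLC6 carriers, which couple transport to sodium and chloride, had 6 tested members of 15, and 1 rose. SLC6A9, the glycine transporter GlyT1, had 55.6, 56.5 and 53.9 CPM in DMSO replicates 1, 2 and 3 and 79.1, 97.9 and 87.9 in GSK-J4 replicates 1, 2 and 3. The DMSO libraries lay within a narrow range and all GSK-J4 libraries lay above it. SLC6A9 rose 1.60-fold (log2 fold change 0.67, SE 0.11, 95% interval 0.42 to 0.93, edgeR adjusted p = 0.0067). Without GSK-J4 replicate 2 its adjusted p was 0.0505, just above the threshold, and in the 12 other alternatives it was called. SLC6A9 (ENSGALG00000010098) is placed on chromosome 8 from 20733964 to 20748606, on the minus strand.

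SLC6A6, the taurine transporter, was the most abundant of the SLC6 genes taken by symbol. It had 203, 191 and 225 CPM with DMSO and 181, 157 and 196 with GSK-J4, with overlap, and was not called (log2 fold change -0.21, edgeR adjusted p = 0.37). Its share of the summed FPKM of the SLC6 genes taken by symbol was 73.0% to 78.1% with DMSO and 57.1% to 67.2% with GSK-J4. The share of SLC6A9 was 17.6% to 20.2% and 27.0% to 33.2%. SLC6A15, a carrier of branched-chain amino acids and proline, had 2.39, 7.94 and 7.045 CPM with DMSO and 8.95, 18.6 and 18.9 with GSK-J4, in the order of replicates 1, 2 and 3. Replicate 1 was the lowest library in both groups, and the groups did not overlap. Its log2 fold change of 1.42 (SE 0.41, 95% interval 0.51 to 2.33) was not called (edgeR adjusted p = 0.082), but was in DESeq2's test (0.0037) and without GSK-J4 replicate 1 (0.036).

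Carriers of neurotransmitters were near the limit of detection. The GABA transporter SLC6A11 (0.638 ± 0.437 and 0.718 ± 0.328 CPM) and the serotonin transporter SLC6A4 (0.717 ± 0.243 and 0.496 ± 0.207 CPM; SD, n = 3 each) overlapped between the groups and were not called. SLC6A13 (33 counts over 6 libraries) and SLC6A20 (19) did not pass the filter, and SLC6A7, SLC6A12, SLC6A17, SLC6A18 and SLC6A19 had 1 to 3 counts each. SLC6A2 and SLC6A5, the transporters of noradrenaline and neuronal glycine, had 0 counts in all libraries, which allows a level of up to 0.0292 CPM over the 6 libraries, counting error only.

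**Figure D4:**
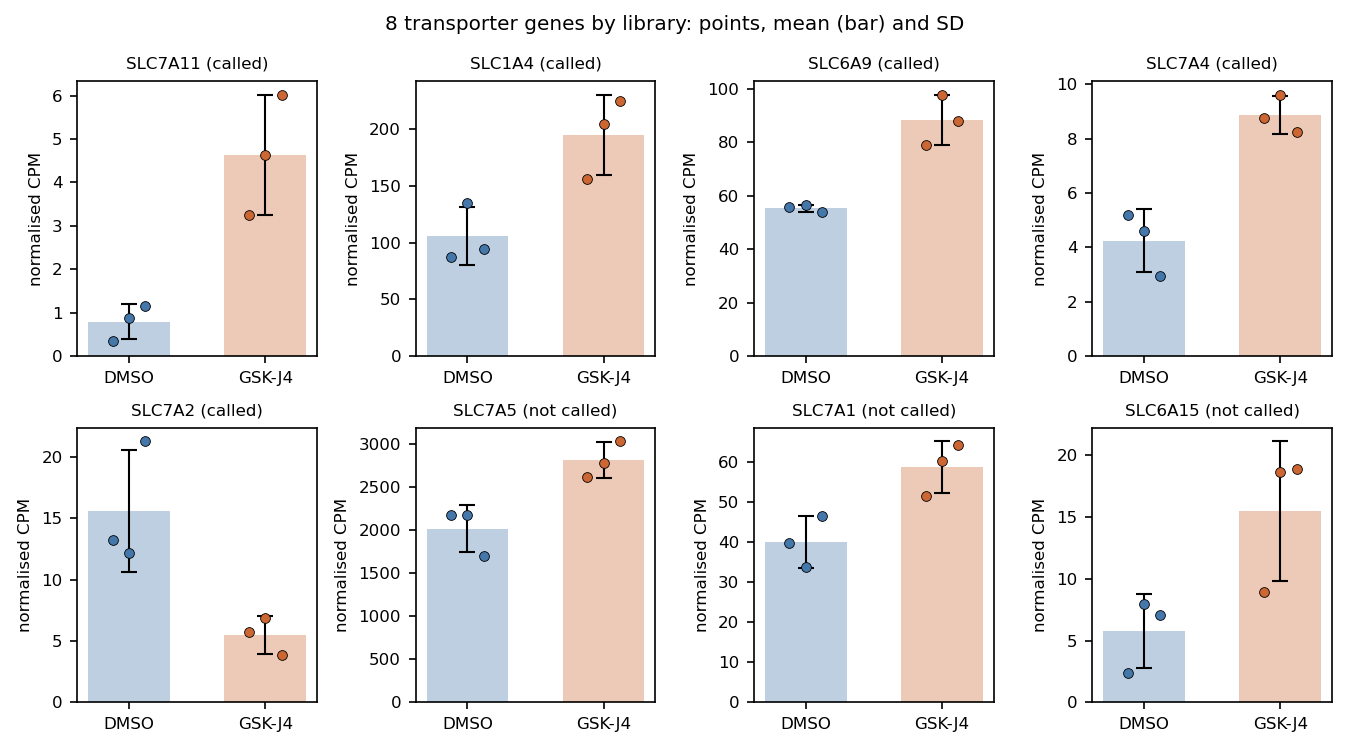
TMM-normalised CPM of 8 transporter genes in each library (points, replicates 1 to 3 from left to right), with the group mean (bar) and SD, n = 3 per group. Groups do not overlap for any of the 8, whose edgeR adjusted p was below 0.05 for the 5 marked as called and 0.057 to 0.082 for the other 3. The 8 are drawn from the 12 of 30 tested members without overlap, beside 24.3% of all tested genes.

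None of the 8 tested SLC38 genes was called by edgeR's quasi-likelihood test, and 1, SLC38A3, had an unadjusted p below 0.05. Over all tested genes, 5.04% were called and 19.1% had an unadjusted p below 0.05 in that test. In DESeq2's test too none was called, beside 1048 of all 12583 tested genes. SLC38A2, the system A carrier that in mammals is induced by amino acid shortage and cell shrinkage, had 229, 338 and 364 CPM in DMSO replicates 1, 2 and 3 and 306, 349 and 388 in GSK-J4 replicates 1, 2 and 3. The groups overlapped, and the log2 fold change was 0.16 (95% interval -0.20 to 0.53, edgeR adjusted p = 0.66). SLC38A1, its neighbour on chromosome 1 with a gap of 24.0 kb and no annotated gene between, had a log2 fold change of 0.16 as well (95% interval -0.08 to 0.39, edgeR adjusted p = 0.49). SLC38A4, which follows SLC38A2 on the same strand after 101 kb, had 27 counts over all libraries and was not tested.

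SLC38A3, the system N carrier of glutamine and histidine, had 48.8, 45.7 and 30.1 CPM with DMSO and 55.2, 57.9 and 60.5 with GSK-J4, without overlap. Its log2 fold change of 0.48 (SE 0.17) was not called (edgeR adjusted p = 0.14), except without DMSO replicate 1 (0.048). SLC38A9, a lysosomal arginine sensor upstream of mTORC1, had 4.61, 2.92 and 3.55 CPM with DMSO and 5.57, 5.04 and 5.31 with GSK-J4. It was not called (0.52, edgeR adjusted p = 0.30). SLC38A10, high in these explants at 163, 135 and 144 CPM with DMSO and 153, 115 and 121 with GSK-J4, overlapped between groups (-0.19, edgeR adjusted p = 0.49). SLC38A7 (-0.05), a lysosomal glutamine carrier whose span overlaps GOT2 on the same strand, SLC38A6 (-0.04) and SLC38A11 (0.25) overlapped between groups as well, and SLC38A8 had 3 counts.

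The remaining families held no called member in edgeR, where 1 of their 6 tested genes, SLC16A10, had an unadjusted p below 0.05. Over all tested genes these shares were 5.04% and 19.1%. SLC16A10, the carrier of aromatic amino acids, had 1.08, 0.993 and 2.11 CPM in DMSO replicates 1, 2 and 3 and 0.563, 0.514 and 0.789 in GSK-J4 replicates 1, 2 and 3. No GSK-J4 library reached a DMSO library, but counts were between 9 and 35 per library, and the log2 fold change of -1.17 (SE 0.48) was not called (edgeR adjusted p = 0.21). SLC43A2, a carrier of large neutral amino acids, and SLC43A3, known in mammals as a carrier of purine bases, had log2 fold changes of -0.46 and -0.31 (edgeR adjusted p = 0.37 and 0.44). The lysosomal histidine and peptide carrier SLC15A4 (0.28) and the proton-coupled carriers SLC36A1 (0.12) and SLC36A4 (-0.03) overlapped between groups. The peptide carriers of gut and kidney, SLC15A1 and SLC15A2, had 2 and 29 counts over all libraries, and SLC15A5 had 0.

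In mammals, SLC7A11, SLC1A4, SLC6A9, SLC7A5, SLC7A1 and SLC38A2 are known target genes of ATF4. Here the log2 fold changes were 2.55, 0.89 and 0.67 for the first 3, which were called, and 0.48, 0.55 and 0.16 for the other 3, which were not. These target genes were picked out with results of these data known. Only RNA was measured, and the part of ATF4 in these values was not tested. Other genes of the amino acid response were looked at from a separate list, itself written with results of these data known. The list held 29 genes. Those with no gene under their symbol in the count table, DDIT3 and TRIB3 among them, were not analysed. Of the 21 tested, 12 rose, 0 fell and 9 were not called in edgeR. Over all tested genes, 1.05% rose and 3.99% fell. Those that rose were ATF4 itself (0.62), ATF3 (0.92), CHAC1 (2.58), SESN2 (1.77), ASNS (1.48), PSAT1 (1.89), PSPH (2.03), MTHFD2 (0.78), ALDH18A1 (1.45), PYCR1 (1.36), CTH (1.301) and GPT2 (1.75). Among these stand enzymes that make serine (PSAT1, PSPH), proline (ALDH18A1, PYCR1), asparagine (ASNS), cysteine (CTH) and alanine (GPT2). ASNS and PSAT1 lay just under the threshold (edgeR adjusted p = 0.0488 and 0.0492). The 9 not called were GARS (0.69), STC2 (0.55), EIF2AK4 (0.30), AARS (0.26), DDIT4 (0.15), XPOT (0.13), EIF2AK3 (0.11), VLDLR (0.01) and CEBPB (-0.42). PSAT1 lies on chromosome Z, and the part of sex in its values was not tested. Leaving out GSK-J4 replicate 2 or 3 left 7 called in either case, while calls over all genes fell from 634 to 249 and 278. Of the 10 transporter members whose ranges lay above DMSO, GSK-J4 replicate 1 was the lowest GSK-J4 library for 7, and GSK-J4 replicate 3 was the highest for 7, which were not all the same genes. This order was not counted over all tested genes. Their main axis of variation also placed GSK-J4 replicates 1, 2 and 3 in that order, at 17.5, 26.6 and 39.9.

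Amino acid carriers of mitochondria and lysosomes outside these families had 13 tested genes, of which 1 rose and 1 fell, beside 5.04% called over all tested genes. SFXN1, the mitochondrial serine carrier, rose from 57.0 to 94.1 CPM in the group means (log2 fold change 0.72, edgeR adjusted p = 0.017), and SLC25A22, a mitochondrial glutamate carrier, fell by 1.03 on the log2 scale (adjusted p = 0.030). Both calls were lost without GSK-J4 replicate 2 (0.096 and 0.16) or 3 (0.074 and 0.14), and that of SLC25A22 also without DMSO replicate 3 (0.12). CTNS (-0.02), which releases cystine from lysosomes, was not called. Of 29 tested genes of amino acid sensing by mTORC1, SESN2, a leucine-binding brake on the complex, was the 1 called, and 28 were not called, which is near the 5.04% called over all tested genes. SESN2 is also among the 12 genes of the amino acid response list.

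The table also holds 6 genes without a symbol whose description names a transporter of these families or an amino acid transporter. They were looked at after their values were seen. The member counts and family shares above leave them out. ENSGALG00000016483 on chromosome 3, described as similar to the light chain of the cystine and cationic amino acid exchanger, had 30, 25 and 46 counts in DMSO replicates 1, 2 and 3 and 2, 8 and 4 in GSK-J4 replicates 1, 2 and 3. Its log2 fold change was -2.85 (SE 0.53). It passed the filter on low counts only through the DMSO libraries, where it was high, so no p-value is given for it. ENSGALG00000041419 was matched through its NCBI identifier to the creatine transporter SLC6A8. It had 204 ± 29.1 CPM with DMSO and 192 ± 18.6 with GSK-J4, beside 206 ± 17.3 and 178 ± 19.5 for SLC6A6 (SD, n = 3 each). ENSGALG00000041419 was not called (log2 fold change -0.09, edgeR adjusted p = 0.75). The gene matched to SLC7A7 had 21 counts over the DMSO libraries and 19 over the GSK-J4 libraries, and that matched to SLC6A14 had 0 and 5.

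**Figure D5:**
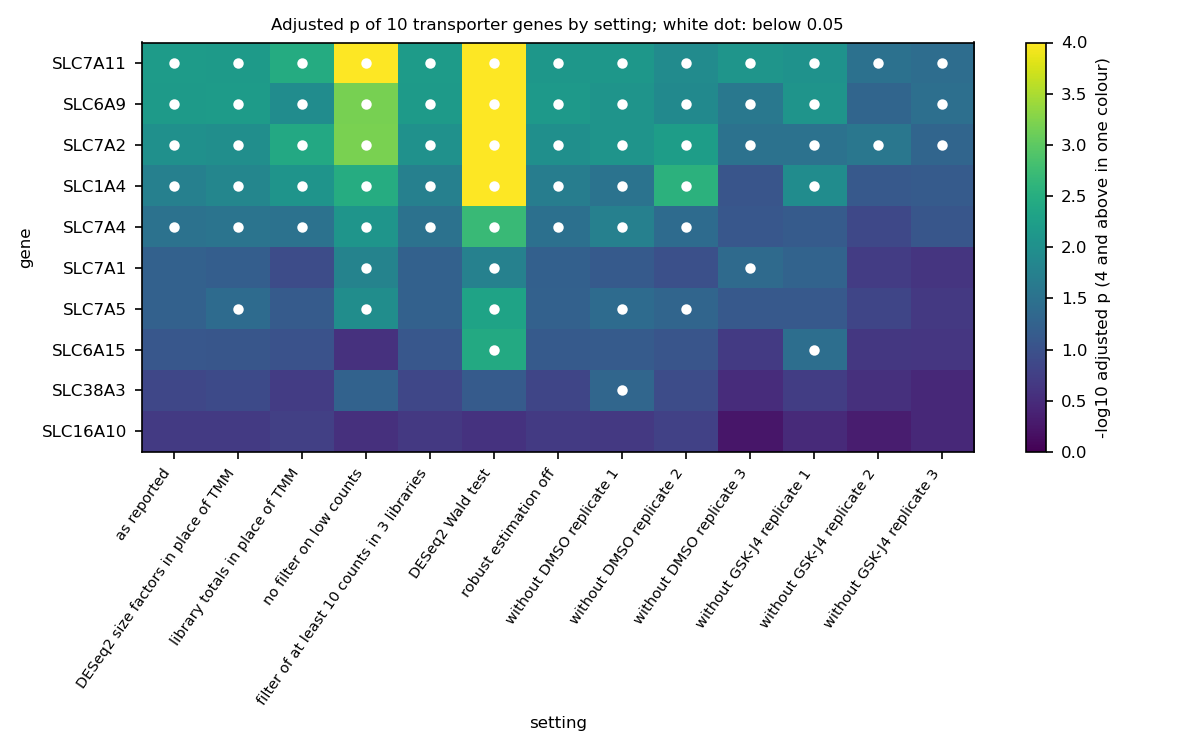
Adjusted p (as -log10, colour) of the 10 tested transporter genes with an unadjusted p below 0.05, for the reported fit and 12 alternatives. White dots mark an adjusted p below 0.05. SLC7A11 and SLC7A2 were called in each setting shown, while SLC7A5 and SLC7A1 lay close to the threshold in the reported fit, at 0.058 and 0.057.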

How the data were processed

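RNA was measured in 6 chicken lens explant libraries sequenced with paired 150 bp reads, 3 per group, grouped and numbered by the sample titles. The authors deposited raw counts per gene and FPKM, which scale each count by the gene's length and a factor common to its library. Tools listed in the submitters' processing notes, without roles, are StringTie 1.3.3b, DESeq2 1.20.0, HISAT2 2.0.5 and featureCounts 1.5.0-p3. No genome build, annotation or strand setting is named in the sources used here.

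The test used edgeR 4.0.16 (R 4.3.3) on the counts: filterByExpr (12583 genes), TMM scaling, and the robust quasi-likelihood F test of treatment, with Benjamini-Hochberg adjustment over all tested genes and calls below 0.05. Standard errors are the log2 fold change over the square root of F. The biological coefficient of variation was 16.9%, and the steps were tested on simulated data. Within a group, pairs of libraries differed by 10.9 to 35.2 chi-square per degree of freedom, so each was counted once. Where libraries share an animal or culture, p-values reflect only spread among these samples, which may be technical.

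Members and lists were chosen with earlier results of these data known. Full values are given for members that were called or reached a log2 fold change of 1 in either direction, for the 6 most abundant, and for SLC7A5, SLC7A11, SLC1A3, SLC1A1, SLC38A2 and SLC38A9. Others are named with a value or count, except 1 tested member that entered all counts and is not reported here. Alternatives were other scalings, filters and dispersion settings, DESeq2 1.42.0, the replicate number as a block, and leaving out each library. Promoter motifs planned for were not analysed here.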

Additional observations from a re-analysis of the deposited data

How the results depend on the processing

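Of 390 fold changes of single members under the alternatives, 378 kept their direction. The 12 that changed sign belonged to 7 members that were not called: SLC3A1 was at -0.036 under library totals, and with each library left out in turn SLC3A1 ranged from -0.20 to 0.21, SLC38A2 from -0.014 to 0.29, SLC38A7 from -0.16 to 0.053, SLC38A11 from -0.19 to 0.56, SLC38A6 from -0.13 to 0.080, SLC36A4 from -0.12 to 0.080 and SLC6A11 from -0.25 to 0.73. SLC7A11 and SLC7A2 were called in all 13 alternatives.

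Called members numbered 8 with no filter and 8 in DESeq2, of which 7 were higher in DESeq2 and 2 lower with no filter (SLC7A2 and SLC1A3). SLC1A3, with hardly a count outside the DMSO libraries, was also among those called without DMSO replicate 2. Neither call of it is read as a result. Leaving out 1 library gave 2 to 7 called, 1 to 6 higher and 1 to 2 lower. Under library totals the median moved from 0.16 to 0.059 over the members and from 0.01 to -0.082 over all tested genes alike. With no filter, which adds 17 members of few counts, the members' median was 0.076. The amino acid response list had 7 to 12 called with 1 library left out, the organelle carriers 0 to 2 and the mTORC1 list 1 to 2, and the mTORC1 list had 2 under library totals, no filter or DESeq2. Over all genes, against 634 called, 132 higher and 502 lower, DESeq2 called 1048, with 325 higher, no filter gave 269 higher, and leaving out 1 library gave 249 to 861 called, 42 to 271 higher and 203 to 590 lower. The cause was not tested.

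Same-numbered libraries deviated together with correlations of 0.30, 0.17 and 0.04, and 5 of 6 libraries correlated best with their own number, a hint from the data and not from the design. With the replicate number as a block, 1129 genes were called, 406 of them higher, and 8 members, 7 of them higher, with SLC7A5, SLC7A1 and SLC6A15 added, and 2 genes of the mTORC1 list. For genes under about 10 counts per library, depth limits what can be seen.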
